A study of Mus musculus with 36 samples.

Results

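The 9 genes described here decide whether a cell leaves G1. They are the INK4 inhibitors Cdkn2a, Cdkn2b, Cdkn2c and Cdkn2d, the inhibitor gene Cdkn1b, the D-type cyclins Ccnd1, Ccnd2 and Ccnd3, and cyclin E1 (Ccne1). They were chosen by symbol and were 9 of 55401 annotated genes counted in 36 RNA-seq libraries of mouse pluripotent cells. Embryonic stem cells (ESCs) were compared with epiblast-like cells (EpiLCs), and control lines with lines lacking accessory subunits of Polycomb repressive complex 2 (PRC2) or core subunits of canonical PRC1. The libraries formed 12 groups of 3 (n = 3 for every mean ± SD below).

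Of the lines sampled at both stages, J2WT was the matched control of J2KO, a Jarid2-null line that lacks the PRC2.2 subunit JARID2. PclWT was the control of TKO and QKO. TKO lacks the 3 Polycomb-like proteins of PRC2.1 (PHF1, MTF2 and PHF19), and QKO lacks these and JARID2. A further control, WT, and its partner Pcgf24KO, which lacks PCGF2 and PCGF4, were sampled as EpiLCs only. Every line was of C57BL/6 background. All ESCs were grown with serum, LIF and the 2i inhibitors (CHIR at 3 µM and PD0325901 at 1 µM), and all EpiLCs were kept for 2 days in activin A (20 ng/ml) and bFGF (12 ng/ml) with knockout serum replacement on fibronectin. Each genotype was represented by a single line as far as the labels say, so a property of a line and an effect of its deletion cannot be told apart. The labels do not say that replicates were separate cultures, and p-values below therefore measure only the spread between libraries.

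The D-type cyclins activate CDK4 and CDK6, and cyclin E activates CDK2. Both kinases phosphorylate the retinoblastoma protein, which releases E2F factors and lets S phase genes be transcribed. The INK4 proteins bind CDK4 and CDK6 and keep D-type cyclins from activating them, while p27, the product of Cdkn1b, inhibits cyclin E-CDK2. Cdkn2a is also the source of ARF, which stabilises p53 and is read from its own upstream first exon in another frame. The Cdkn2a-Cdkn2b locus is a classical Polycomb target in differentiated cells. Mouse ESCs are known for a short G1 and for high cyclin E. Whether that holds with the inhibitors in the ESC medium used here was not tested, since neither G1 length nor cyclin E protein was measured.

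Cdkn2a (chr4:89274471-89294653, minus strand, GRCm38) and Cdkn2b (chr4:89306299-89311039, minus strand) lie next to each other and are shown because both rose between the stages in the control lines. RefSeq (GRCm38.p6) lists a pair of transcript starts for Cdkn2a and 1 for Cdkn2b. The 250 bases before each start are given 5′ to 3′ on the gene's strand, with every CG dinucleotide in capitals. The windows are chr4:89294620-89294869, chr4:89282193-89282442 and chr4:89311033-89311282, in the order of the lines that follow.
Cdkn2a, upstream start: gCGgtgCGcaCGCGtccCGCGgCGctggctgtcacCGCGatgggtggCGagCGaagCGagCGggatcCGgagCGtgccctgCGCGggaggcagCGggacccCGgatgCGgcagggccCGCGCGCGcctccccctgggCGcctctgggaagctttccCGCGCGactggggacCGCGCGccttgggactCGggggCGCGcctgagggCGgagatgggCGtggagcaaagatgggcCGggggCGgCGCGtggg
Cdkn2a, inner start: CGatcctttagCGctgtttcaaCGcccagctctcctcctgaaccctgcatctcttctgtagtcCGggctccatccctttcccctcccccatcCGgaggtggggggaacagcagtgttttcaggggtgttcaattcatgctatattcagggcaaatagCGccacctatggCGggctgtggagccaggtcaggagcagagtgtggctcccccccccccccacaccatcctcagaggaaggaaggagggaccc
Cdkn2b: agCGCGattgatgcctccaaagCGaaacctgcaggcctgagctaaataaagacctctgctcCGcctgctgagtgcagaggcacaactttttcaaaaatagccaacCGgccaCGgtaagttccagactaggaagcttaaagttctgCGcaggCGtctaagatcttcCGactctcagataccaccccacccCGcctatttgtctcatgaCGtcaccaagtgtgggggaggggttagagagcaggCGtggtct
The window of the upstream Cdkn2a start held 40 CG dinucleotides and 78.4% G and C, and 1.3% of 32851 RefSeq promoter windows of this length held as many. The inner start had 7 and Cdkn2b had 12, against a median of 6 over all windows. Gene-level counts add the transcripts of both Cdkn2a starts, so the ARF and p16 transcripts were not separated here. Of 4 forms of the E2F motif searched on both strands (TTTCCCGC, TTTGGCGC, TTTCGCGC and TTTGCCGC), the first was in 0.89% of all windows and in a window of Cdkn2a, and the others, in 0.42%, 0.26% and 0.34% of windows, were in none of the 10 windows listed for 7 of the members.

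Libraries held 6784578 to 18026492 reads counted in genes, with a median of 10472704. The naive markers summed to 3841 to 6020 CPM (counts scaled to a common library size) in ESCs and to 272 to 1370 CPM in EpiLCs. The formative markers summed to 3741 to 3819 CPM in J2WT EpiLCs but to 904 to 1088 CPM in PclWT EpiLCs, where Fgf5, a gene that marks the exit from naive pluripotency, had a mean of 0.896 CPM against 58.3 CPM in J2WT EpiLCs. Formative sums were higher in the mutant EpiLCs set against PclWT. TKO held 2124 to 2268 CPM and QKO 2740 to 3113 CPM. Naive sums at this stage were 374 to 467 CPM for PclWT, 565 to 627 CPM for TKO and 1259 to 1370 CPM for QKO. The part of these gaps in the TKO and QKO EpiLC results below was not tested. The fibroblast list lay between 16.3 and 38.6 CPM in every library, and several of its genes, such as Col3a1 and Postn, were at 0 in some groups. Primitive endoderm markers summed to 88.9 to 97.4 CPM in TKO EpiLCs, against 14.2 to 19.2 CPM in PclWT EpiLCs. A pair of libraries stood apart from their group, PclWT EpiLC replicate 1 and QKO EpiLC replicate 2, and calls on members that turn on them are given with and without them. Of the targeted genes, Mtf2 and Phf1 were low in TKO and QKO. Phf19 was at 1.25 CPM in TKO and 1.67 CPM in PclWT ESCs, and Jarid2, Pcgf2 and Bmi1 RNA remained in the lines labelled as lacking them (Jarid2 411 CPM in J2KO and 457 CPM in J2WT ESCs), so gene-level RNA does not check the loss of these 4 genes.

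The INK4 gene Cdkn2a rose from ESCs to EpiLCs in the control lines and was higher in most mutant comparisons. Ccnd3 fell at the ESC-EpiLC transition while Ccnd2, nearly undetected in J2WT ESCs, rose in 1 control line and not in the other. The 3 D-type cyclins moved apart in the mutants, with group means of Ccnd2 between 0.0847 and 143 CPM. Below, a gene is said to pass the test, to rise or to fall where its Benjamini-Hochberg adjusted p in edgeR's quasi-likelihood test, adjusted over all genes tested, was under 0.05. A difference is called over 2-fold where its absolute log2 fold change also exceeded 1.

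Between ESCs and EpiLCs of J2WT and PclWT in 1 fit, 7 of the 9 genes passed the test (4 higher and 3 lower in EpiLCs) where 51.7% of all genes tested did, and 4 did so by over 2-fold against 20.9% of all genes. In J2KO ESCs 6 of 8 tested members passed (70.9% of all genes) and 1 by over 2-fold (13.3%). In J2KO EpiLCs 6 of 9 passed (65.2%) and 2 by over 2-fold (8.85%). For TKO the counts were 6 of 7 in ESCs (66.7%), 2 of them over 2-fold (13.7%), and 6 of 9 in EpiLCs (33.5%), 4 of them over 2-fold (14.1%). For QKO they were 6 of 8 in ESCs (69.9%), 4 over 2-fold (13.8%), and 3 of 9 in EpiLCs (32.7%), 1 over 2-fold (13.7%). Without the PclWT EpiLC library that stood apart, the share of all genes that passed was 66.4% for TKO and 66.4% for QKO EpiLCs, and 6 members passed in QKO. QKO against TKO gave 7 of 8 in ESCs (42.0%), 2 over 2-fold (4.59%), and 6 of 9 in EpiLCs (45.3%), 1 over 2-fold (4.82%). In Pcgf24KO EpiLCs 8 of 9 passed (56.9%) and 2 by over 2-fold (5.80%). Since most genes passed in many of these comparisons, a member's passing says little without its size.

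The count filter, a mean normalised count of 15, left some members untested. These were Ccnd2 in J2KO ESCs, Cdkn2b and Cdkn2c in TKO ESCs, and Cdkn2c in QKO ESCs and in QKO against TKO ESCs. Ccnd2 passed the filter in QKO ESCs only through the other group, so that its difference there followed from being tested. In the fits of J2WT and PclWT at both stages, Ccnd2 passed it only through groups other than J2WT ESCs, which held 1, 2 and 1 counts. Cdkn2b did so in QKO ESCs through QKO, and Cdkn2c in TKO and QKO EpiLCs through the mutants, since PclWT EpiLCs held 11, 12 and 11 counts of it. These differences are in the counts of members that passed and are given as descriptions. TKO and QKO were compared with the same PclWT libraries, and their values are given side by side.

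**Figure D1:**
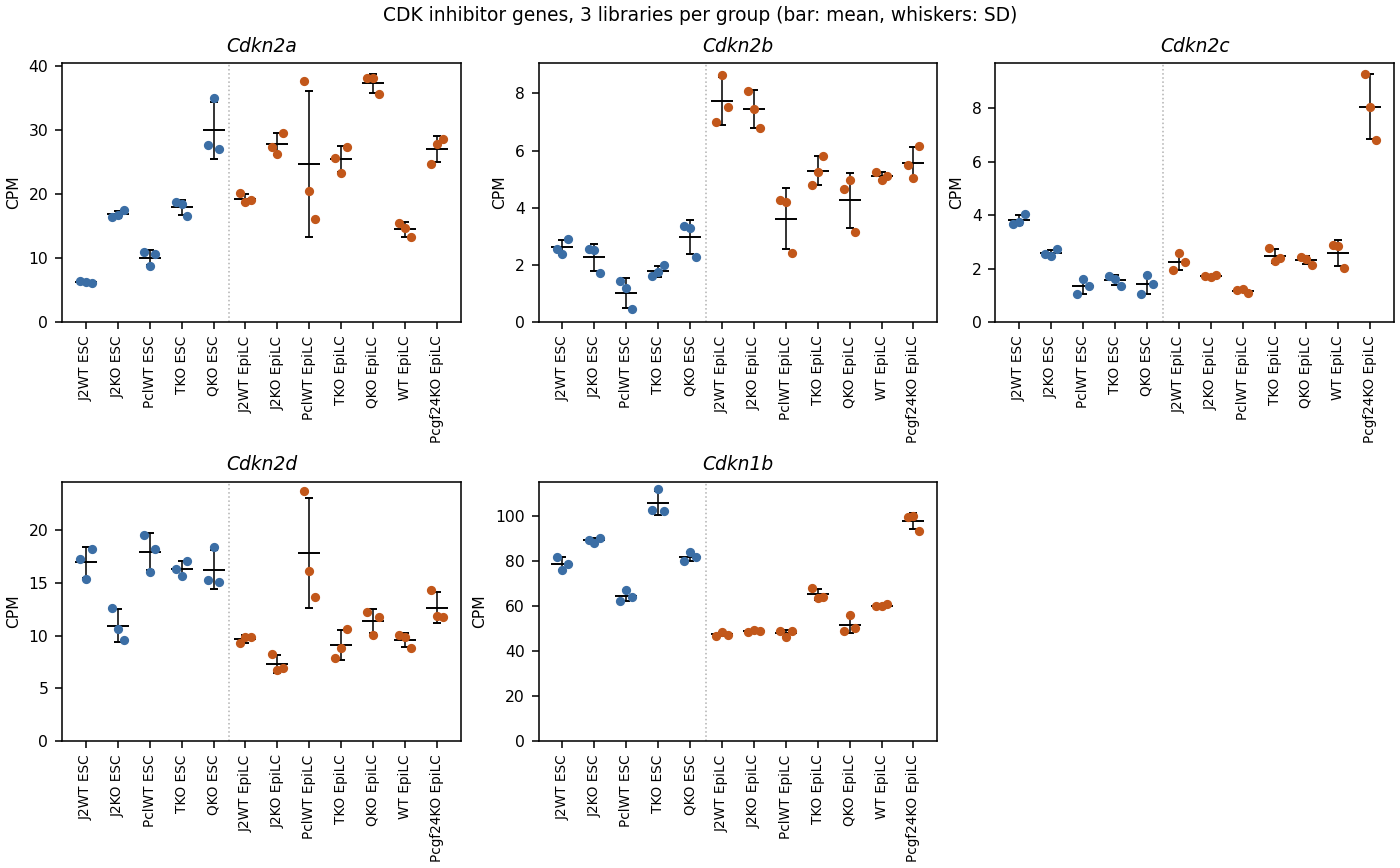
CPM of the 5 inhibitor genes in each library (dots), with ESCs in blue and EpiLCs in orange, the group mean as a bar and its SD as whiskers (n = 3), one panel per gene with its own axis. Cdkn2a runs from 6.28 CPM in J2WT ESCs to 37.2 CPM in QKO EpiLCs, with the spread in PclWT EpiLCs set by 1 library, and Cdkn2c is highest in Pcgf24KO.

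The J2WT line gave 6.35, 6.32 and 6.17 CPM of Cdkn2a in its ESC libraries, and 20.1, 18.7 and 19.0 CPM after differentiation. In PclWT it was at 10.9, 8.77 and 10.6 CPM in ESCs and at 37.6, 20.4 and 16.1 CPM in EpiLCs. Every EpiLC library of both control lines lay above every ESC library of its line, and the first PclWT EpiLC library was far above the other 2. Over both lines Cdkn2a rose 2.72-fold (log2 fold change 1.45 ± 0.18 SE, adjusted p = 3.8e-05), by 1.27 in PclWT alone (adjusted p = 0.0263). The rise did not differ detectably between the lines (difference of log2 fold changes -0.35, 95% interval -1.05 to 0.34) with all libraries, but was smaller in PclWT without PclWT EpiLC replicate 1 (-0.77, adjusted p = 0.000204). Per kilobase of exon the extremes of Cdkn2a were 5.36 and 31.8 CPM per kb. The order of levels put J2WT ESCs lowest and QKO EpiLCs highest, while J2KO ESCs (16.8 CPM) and TKO ESCs (17.9 CPM) already stood near J2WT EpiLCs (19.3 CPM).

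In J2KO ESCs Cdkn2a was at 16.4, 16.7 and 17.5 CPM, clear of the J2WT ESC libraries. It was 2.69-fold higher (log2 fold change 1.43 ± 0.09, adjusted p = 1.01e-11). In J2KO EpiLCs it was at 27.4, 26.2 and 29.6 CPM, again above every control library, but the difference was smaller (0.54 ± 0.07, adjusted p = 4.31e-08). The difference between the effects at the 2 stages was itself past the test (-0.91 ± 0.11, adjusted p = 5.01e-08). Loss of JARID2 thus went with a larger difference in Cdkn2a in ESCs than in EpiLCs.

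The lines without Polycomb-like proteins were also higher in ESCs. TKO ESCs had 18.7, 18.5 and 16.5 CPM of Cdkn2a (log2 fold change over PclWT 0.80 ± 0.12, adjusted p = 6.14e-06). QKO ESCs had 27.7, 34.9 and 27.1 CPM (1.56 ± 0.12, adjusted p = 5.06e-09). No TKO or QKO ESC library overlapped PclWT ESCs, and QKO was above TKO by 0.72 ± 0.10 (adjusted p = 9.38e-06).

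In EpiLCs the comparison with PclWT turned on 1 library. TKO EpiLCs were at 25.6, 23.3 and 27.4 CPM of Cdkn2a and QKO EpiLCs at 35.5 to 38.11 CPM. The TKO libraries lay below, and the QKO range held, the 37.6 CPM of PclWT replicate 1, and both lay above the other 2 control libraries. With all libraries neither TKO (log2 fold change 0.00 ± 0.31, adjusted p = 1.00) nor QKO (0.58 ± 0.30, adjusted p = 0.180) passed. Without PclWT EpiLC replicate 1 both did, with 0.46 in TKO (adjusted p = 0.000852) and 1.00 in QKO (adjusted p = 5.93e-09), and QKO gave 0.98 (adjusted p = 2.11e-07) when QKO EpiLC replicate 2 was left out as well. QKO against TKO, which needs no control library, gave 0.54 ± 0.07 (adjusted p = 4.03e-06). In Pcgf24KO EpiLCs Cdkn2a was at 24.7, 27.7 and 28.5 CPM, above the 15.4, 14.7 and 13.3 CPM of WT EpiLCs (0.92 ± 0.09, adjusted p = 1.42e-11). Over the 7 comparisons of a mutant with its control Cdkn2a passed in 5, each time higher in the mutant. In bulk RNA, fewer cells that express a gene and less RNA per cell cannot be told apart.

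Cdkn2b, which encodes p15, was a low-count gene and followed Cdkn2a at the transition but seldom in the mutants. It rose from 2.61 ± 0.26 to 7.73 ± 0.84 CPM in J2WT and from 1.03 ± 0.52 to 3.62 ± 1.06 CPM in PclWT. The rise over both lines was 3.13-fold (log2 fold change 1.65 ± 0.22, adjusted p = 5.54e-05). In QKO ESCs its libraries held 29, 26 and 21 counts (3.36, 3.30 and 2.28 CPM) against 15, 11 and 4 (1.45, 1.18 and 0.445 CPM) in PclWT, where it was tested only because QKO was high. In the other 5 mutant comparisons in which it was tested Cdkn2b did not pass, except in TKO EpiLCs without PclWT EpiLC replicate 1 (0.65, adjusted p = 0.0178). In J2KO ESCs, where Cdkn2a was higher by 1.43, Cdkn2b gave -0.18 with a 95% interval of -0.55 to 0.19, and in Pcgf24KO it gave 0.14 (-0.18 to 0.45). These intervals leave out an effect of the size seen at Cdkn2a in the same libraries.

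Of the other genes annotated within 300 kb of Cdkn2a, Mtap, which encodes a methionine salvage enzyme, was between 105.5 and 179.9 CPM in the group means. The other 11 held at most 34 counts over all libraries, so Cdkn2a, Cdkn2b and Mtap held nearly all reads counted in this stretch. RNA without a poly(A) tail was not measured.

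Cdkn2c, which encodes p18, was low in counts in every group but Pcgf24KO. It lay between 1.18 CPM in PclWT EpiLCs and 3.81 CPM in J2WT ESCs, and its largest difference was in Pcgf24KO EpiLCs. Those libraries held 9.27, 8.05 and 6.82 CPM and the WT libraries 2.87, 2.84 and 2.03 CPM. All 3 mutant libraries were above all 3 controls, by 3.16-fold (log2 fold change 1.66 ± 0.18, adjusted p = 2.45e-10). In the Polycomb-like mutants the counts were too low for a test that did not depend on the mutant level. Cdkn2c was at 2.48 ± 0.25 CPM in TKO EpiLCs (31, 22 and 17 counts) and 2.31 ± 0.16 CPM in QKO EpiLCs (24, 21 and 25 counts), against 1.18 ± 0.07 CPM in PclWT EpiLCs. In J2KO ESCs it fell (-0.55 ± 0.15, adjusted p = 0.00304). At the transition Cdkn2c went from 3.81 ± 0.19 to 2.25 ± 0.31 CPM in J2WT. In PclWT it went from 1.34 ± 0.27 to 1.18 ± 0.07 CPM, and this line alone, with 11 to 15 counts per library, was under the count filter. Over both lines the fall was 0.54 (adjusted p = 0.016), and the lines did not differ detectably (0.56, adjusted p = 0.234). The pooled call was lost without J2WT EpiLC replicate 1 (adjusted p = 0.0527) and with the replicate numbers as a block (-0.52, adjusted p = 0.0732).

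Cdkn2d, which encodes p19 of the INK4 family, fell in 3 of 7 mutant comparisons and rose in 1. The J2WT line had 17.0 ± 1.5 CPM before and 9.68 ± 0.36 CPM after the transition, whereas PclWT had 17.96 ± 1.78 CPM in ESCs and 17.8 ± 5.3 CPM in EpiLCs. Over both lines it did not pass (log2 fold change -0.42, adjusted p = 0.0552). It passed without PclWT EpiLC replicate 1, at -0.56. The 2 control lines differed in this response (0.77 ± 0.24, adjusted p = 0.0223), a difference that was lost in 3 of 12 fits that left out 1 library. In J2KO Cdkn2d fell in ESCs (-0.62 ± 0.10, adjusted p = 9.53e-06) and in EpiLCs (-0.38 ± 0.11, adjusted p = 0.0025). In TKO EpiLCs it was at 7.83, 8.86 and 10.6 CPM, below all of the PclWT libraries at 23.7, 16.2 and 13.6 CPM (-1.02 ± 0.24, adjusted p = 0.0186, lost without TKO EpiLC replicate 1 or 2). In QKO EpiLCs it did not pass (-0.66, adjusted p = 0.0618), but did without PclWT EpiLC replicate 1 (-0.41, adjusted p = 0.00774). In Pcgf24KO it went the other way, with a rise of 0.42 ± 0.12 (adjusted p = 0.00224).

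Cdkn1b was between 47.5 and 106 CPM in the group means, or 10.4 to 23.2 CPM per kb of annotated exon, a range within that of Cdkn2a. It fell from 78.8 ± 3.1 to 47.5 ± 0.9 CPM in J2WT and from 64.4 ± 2.4 to 47.8 ± 1.6 CPM in PclWT. The fall over both lines was small (log2 fold change -0.59 ± 0.07, adjusted p = 2.11e-05). It was smaller in PclWT than in J2WT (difference 0.28 ± 0.09, adjusted p = 0.0296), a call lost in 8 of 12 fits that left out 1 library. In mutants it passed in 5 of 7 comparisons, always higher and never by over 2-fold. Pcgf24KO EpiLCs had 99.4, 100.2 and 93.4 CPM against 59.7, 59.8 and 61.0 CPM in WT (0.72 ± 0.05, adjusted p = 1.12e-15). TKO ESCs had 106 ± 5 CPM against 64.4 CPM (0.69 ± 0.06, adjusted p = 1.01e-08) and QKO ESCs 81.9 ± 2.0 CPM (0.35 ± 0.05, adjusted p = 2.04e-05). The rise in TKO EpiLCs (0.41 ± 0.10, adjusted p = 0.0219) was lost in 5 of 6 fits that left out 1 library. QKO was below TKO at both stages, by -0.38 in ESCs (adjusted p = 1.02e-05) and -0.36 in EpiLCs (adjusted p = 2.91e-05).

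**Figure D2:**
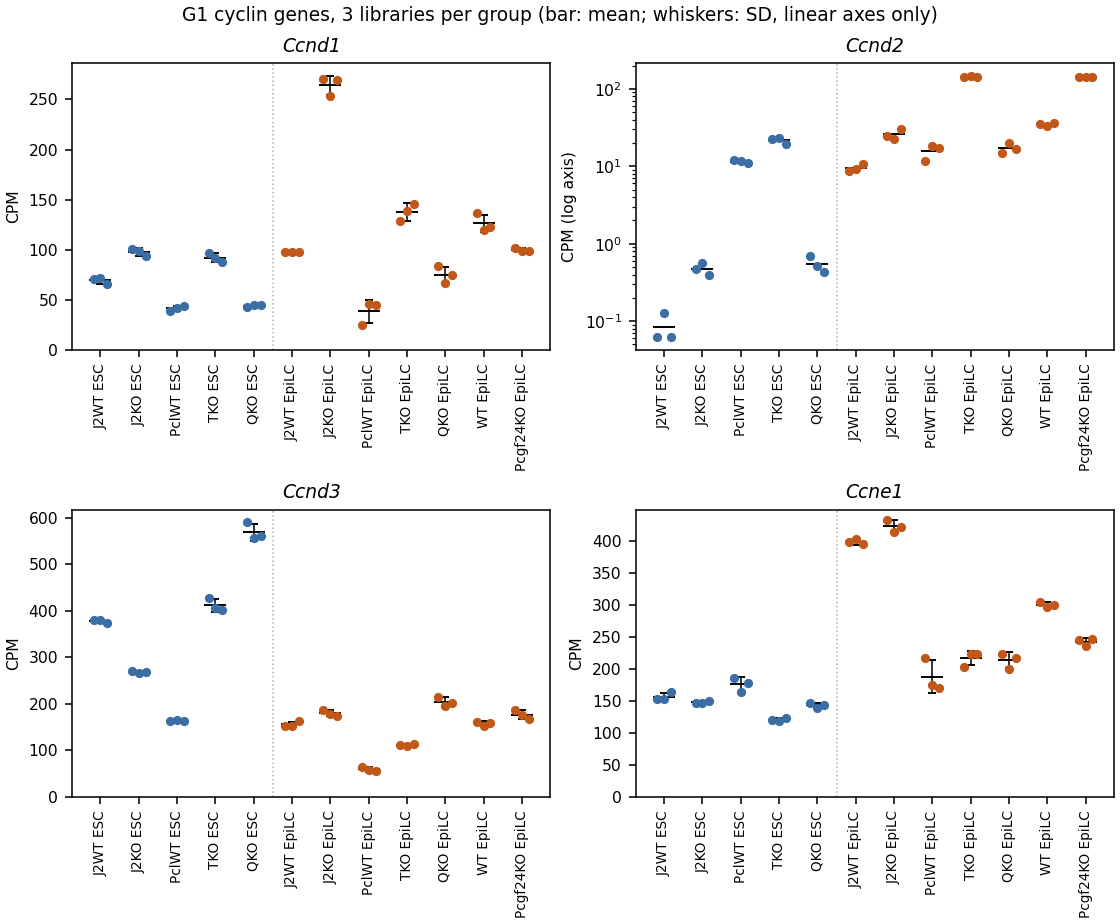
CPM of Ccnd1, Ccnd2, Ccnd3 and Ccne1 in each library (dots), with ESCs in blue and EpiLCs in orange and the group mean as a bar. Whiskers are SD (n = 3), except for Ccnd2, which is on a log axis without whiskers. Ccnd2 runs from 0.0847 CPM in J2WT ESCs to 143 CPM in TKO EpiLCs, and Ccnd3 is lower in EpiLCs than in ESCs of every line sampled at both stages.

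Ccnd3, the D-type cyclin with the largest share in ESCs (below), was lower in EpiLCs than in ESCs in each of the 5 lines sampled at both stages. Its J2WT libraries held 379.6, 380.9 and 373.8 CPM in ESCs and 152, 153 and 162 CPM in EpiLCs. PclWT had 164, 165 and 162 CPM in ESCs and 64.9, 57.1 and 55.6 CPM in EpiLCs. The stages did not overlap in either line, although PclWT ESCs stood at the level of J2WT EpiLCs. The fall over both lines was to 0.385 of the ESC level (log2 fold change -1.38 ± 0.07, adjusted p = 1.23e-08).

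In the mutants Ccnd3 passed in all 7 comparisons, higher in 6. TKO ESCs had 427, 406 and 403 CPM (log2 fold change over PclWT 1.30 ± 0.05, adjusted p = 1.39e-13). QKO ESCs had 591, 558 and 560.5 CPM (1.81 ± 0.05, adjusted p = 1.21e-14). In EpiLCs TKO had 111 to 114 in 2 libraries and 110.1 CPM in the other (0.88 ± 0.11, adjusted p = 0.00175), and QKO had 215, 195 and 202 CPM (1.77 ± 0.12, adjusted p = 0.000184). No mutant library overlapped PclWT, and QKO was above TKO by 0.46 in ESCs (adjusted p = 7.48e-08) and 0.85 in EpiLCs (adjusted p = 2.61e-12). PclWT had the lowest mean of the control lines at each stage. The TKO ESC mean (412 CPM) was near that of J2WT ESCs (378 CPM). TKO EpiLCs (112 CPM) were below J2WT EpiLCs (156 CPM) and WT EpiLCs (158 CPM). The QKO means, 570 CPM in ESCs and 204 CPM in EpiLCs, were above every control mean of their stage. J2KO was the line in which the direction turned. Ccnd3 was lower in J2KO ESCs (268.6 ± 2.3 CPM, -0.49 ± 0.03, adjusted p = 1.59e-11) and slightly higher in J2KO EpiLCs (180.4 ± 6.8 CPM, 0.23 ± 0.03, adjusted p = 1.15e-06). The difference between those effects was 0.69 ± 0.05 (adjusted p = 7.5e-14).

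Ccnd2 RNA was all but undetected in ESCs of 3 lines. The 3 J2WT ESC libraries held 4 Ccnd2 counts in all (0.0623, 0.129 and 0.0630 CPM), J2KO ESCs 23 (0.475, 0.558 and 0.398 CPM) and QKO ESCs 14 (0.695, 0.508 and 0.435 CPM). PclWT ESCs, in contrast, were at 11.9, 11.8 and 10.9 CPM and TKO ESCs at 22.8, 23.0 and 19.7 CPM. The 2 control lines thus differed in Ccnd2 before differentiation began. In EpiLCs J2WT reached 8.65, 9.20 and 10.7 CPM and PclWT 11.7, 18.3 and 17.0 CPM. By counts, the EpiLC to ESC ratio in J2WT was 113, with a 95% counting interval of 43.7 to 415 that covers counting error only. PclWT alone gave a log2 fold change of 0.42 (adjusted p = 0.141) and J2WT alone gave a fitted 6.70, whose size rests on those 4 counts. The pooled stage effect of Ccnd2 (2.26 ± 0.78, adjusted p = 0.0277) averages 2 unlike lines, and was lost without any 1 J2WT ESC library (adjusted p up to 0.0706) and with the replicate block (2.45, adjusted p = 0.0986). The difference between the lines was -6.24 ± 0.40, given as a description, since the gene was tested only through groups other than J2WT ESCs. Formative markers also differed between these lines, as given above, and their part in the result was not tested.

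Loss of the Polycomb-like proteins went with the highest Ccnd2. TKO EpiLCs held 142, 146 and 142 CPM, 8.88-fold above PclWT (log2 fold change 3.15 ± 0.18, adjusted p = 0.000148), and TKO ESCs were 1.85-fold above it (0.89 ± 0.10, adjusted p = 4.71e-07). The effect was larger in EpiLCs by 2.25 ± 0.20 (adjusted p = 4.12e-05). With JARID2 also absent the level was not raised. QKO ESCs were far below both PclWT and TKO ESCs, by counting ratios of 21.2 (95% counting interval 12.5 to 39.2) and 40.1 (23.7 to 73.7). QKO EpiLCs, at 14.7, 19.9 and 16.9 CPM, lay among the PclWT libraries (0.11, 95% interval -0.28 to 0.51, adjusted p = 0.702) and below every TKO library (-3.08 ± 0.06, adjusted p = 8.36e-20). Primitive endoderm markers summed to 45.6 to 47.5 CPM in QKO EpiLCs, between TKO and PclWT EpiLCs, and their part in the Ccnd2 differences was not tested.

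The other mutants also had more Ccnd2. J2KO EpiLCs held 24.98, 22.8 and 30.4 CPM, above every J2WT EpiLC library (log2 fold change 1.47 ± 0.10, adjusted p = 3.06e-13). In J2KO ESCs, where it was not tested, the counting ratio to J2WT was 5.68 (95% counting interval 1.94 to 22.6). Pcgf24KO EpiLCs held 140.6, 141 and 142 CPM and the 3 WT libraries 34.8 ± 1.4 CPM. Those groups were tight and far apart (2.04 ± 0.05, adjusted p = 1.56e-30), and the level in Pcgf24KO stood beside that of TKO EpiLCs, although the control levels differed.

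Ccnd1 showed no shared response to the stage and rose in TKO and J2KO. In J2WT its ESC libraries held 71.0, 71.9 and 65.6 CPM and its EpiLC libraries 98.3, 98.0 and 97.6 CPM. PclWT had 38.8, 41.9 and 44.1 CPM in ESCs and 25.2, 46.2 and 44.8 CPM in EpiLCs, with the low value again in replicate 1. The stage effect over both lines did not pass (log2 fold change 0.20, adjusted p = 0.305), and without PclWT EpiLC replicate 1 it passed at 0.35 (adjusted p = 0.0016). The highest level of Ccnd1 in any group was in J2KO EpiLCs, with 269.95, 253 and 269.6 CPM (1.45 ± 0.03 over J2WT, adjusted p = 2.7e-23). In J2KO ESCs it had 101.2, 99.2 and 93.8 CPM (0.51 ± 0.05, adjusted p = 4.12e-09), and the effect at the 2 stages differed by 0.92 ± 0.06 (adjusted p = 2.87e-14).

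Ccnd1 was higher in TKO than in PclWT at both stages, and in QKO in EpiLCs only and by less. PclWT EpiLCs had the lowest mean of any group (38.7 CPM), and the TKO EpiLC libraries overlapped those of the WT control (126 CPM). TKO ESCs had 97.4, 92.1 and 87.7 CPM (1.13 ± 0.07, adjusted p = 3.81e-11) and TKO EpiLCs 129, 139 and 146 CPM (1.79 ± 0.23, adjusted p = 0.00179). QKO ESCs had 43.2, 45.1 and 44.8 CPM and overlapped PclWT (0.10, 95% interval -0.03 to 0.23). QKO EpiLCs had 83.6, 67.2 and 74.6 CPM and did not overlap PclWT (0.94 ± 0.24, adjusted p = 0.0219), but the call was lost when any 1 QKO EpiLC library was left out (adjusted p up to 0.0899). Ccnd1 was lower in QKO than in TKO by -1.07 ± 0.06 in ESCs (adjusted p = 1.79e-11) and -0.89 ± 0.06 in EpiLCs (adjusted p = 4.42e-11). Pcgf24KO EpiLCs were alone in having less Ccnd1 than their control (99.8 ± 2.0 against 126 ± 9 CPM, -0.32 ± 0.05, adjusted p = 3.04e-07).

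**Figure D3:**
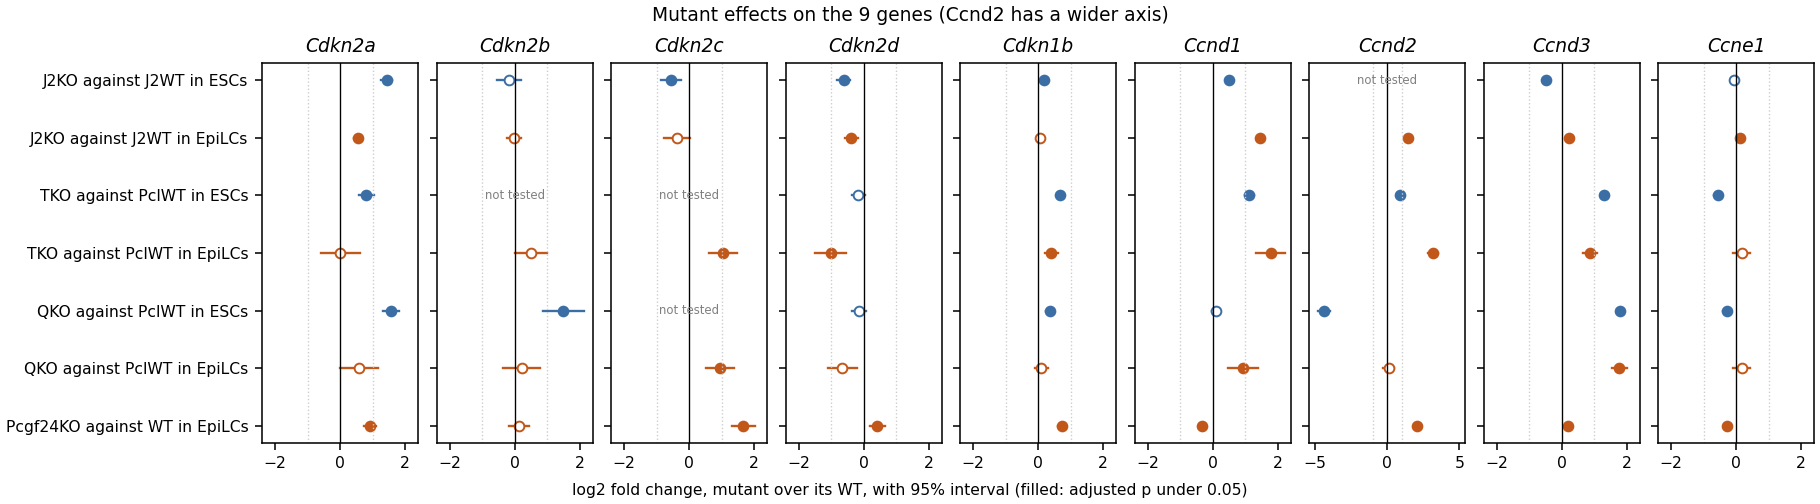
Log2 fold change of each of the 9 genes in each mutant over its own control, for ESCs and EpiLCs, with approximate 95% intervals taken from the SE. Filled points have an adjusted p under 0.05, open points do not, and genes under the count filter are marked as not tested. Ccnd2 reaches 3.15 in TKO EpiLCs, its QKO ESC point rests on 14 counts in the mutant, and Cdkn1b stays under 1 in every comparison.

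The make-up of the D-type cyclins differed between stages and lines. To compare genes, CPM were divided by the joint length of all annotated exons of each gene. This was 4709 bases for Ccnd1, 9409 for Ccnd2 and 8775 for Ccnd3. The share of each cyclin in the sum of the 3 was then taken. A transcript shorter than this length makes the level per kb and the share too low. Which transcripts were expressed was not determined, so the order of the cyclins within a group depends on these lengths. In J2WT, Ccnd3 made up 74.5% ± 0.8 of the sum in ESCs and 44.9% ± 0.8 in EpiLCs, and Ccnd1 rose in turn from 25.5% to 52.6%. The Ccnd3 share was highest in QKO ESCs, at 87.3% ± 0.6, and the Ccnd1 share in J2KO EpiLCs, at 70.6% ± 0.6. Ccnd2 was 26.6% ± 0.9 of the sum in TKO EpiLCs and 26.6% in Pcgf24KO EpiLCs, against 7.64% ± 0.32 in WT EpiLCs and 9.93% ± 0.92 in PclWT EpiLCs. The sum itself ran from 16.6 ± 2.3 CPM per kb in PclWT EpiLCs to 79.5 ± 2.5 CPM per kb in J2KO EpiLCs. Reads in exons shared with a gene on the other strand are dropped from the counts used. This lowers Ccnd1 (the LTO1 gene covers 23.4% of its exons), Ccnd3 (Bysl covers 4.1%) and Ccnd2 (a pair of antisense genes, 3.9% and 4.0%). Summing both strand columns gave 1.28 times as many counts for Ccnd1, 1.066 times for Ccnd2 and 1.198 times for Ccnd3. That sum also takes in reads of the other gene, so it does not measure the cyclin reads lost.

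**Figure D4:**
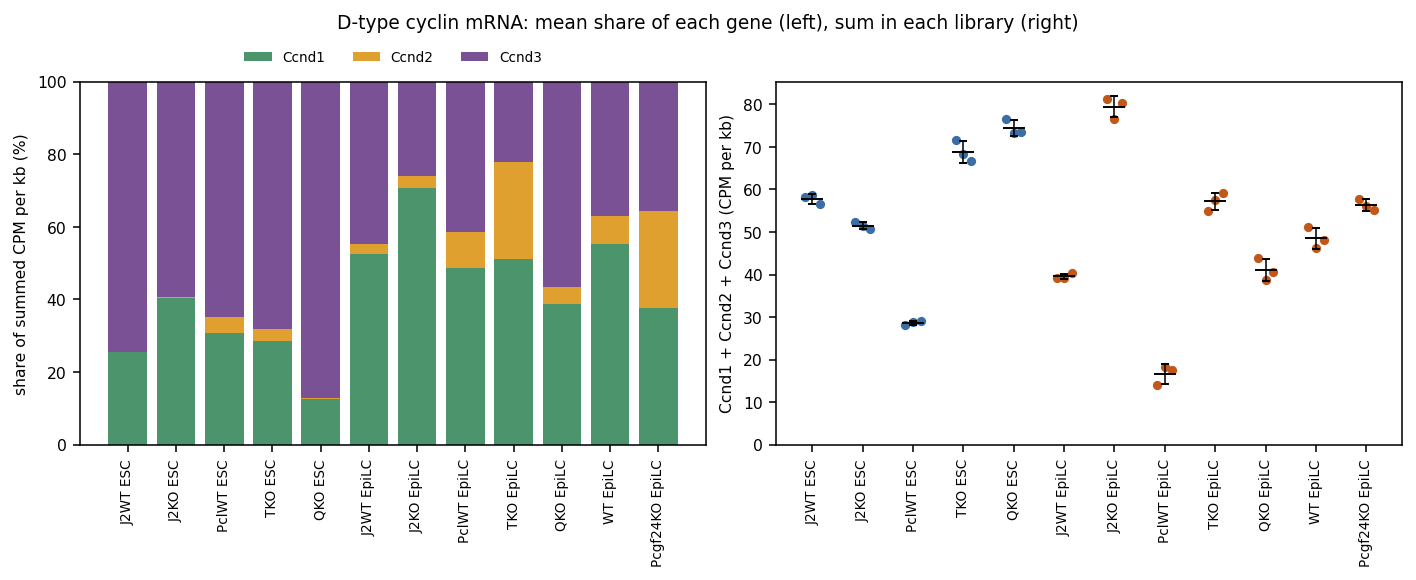
Left, mean share of Ccnd1, Ccnd2 and Ccnd3 in their summed CPM per kb in each of the 12 groups, in percent. Right, the summed level in CPM per kb in each library (dots, ESCs blue and EpiLCs orange), with the group mean as a bar and its SD as whiskers (n = 3). With CPM divided by the length of all annotated exons, Ccnd3 leads in ESCs (87.3% in QKO) and Ccnd1 in most EpiLC groups. The sum is lowest in PclWT EpiLCs and highest in J2KO EpiLCs.

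Ccne1 reached the highest level of the 9 genes per kilobase of annotated exon, with group means from 45.4 to 159 CPM per kb. That rank depends on the annotated exon lengths. J2WT libraries held 153, 154 and 164 CPM in ESCs and 398, 404 and 395 CPM in EpiLCs. PclWT libraries held 186, 164 and 178 CPM in ESCs and 218, 175 and 171 CPM in EpiLCs, with the stages overlapping. The pooled rise (log2 fold change 0.72 ± 0.20, adjusted p = 0.01) was carried by J2WT, at 1.36 alone, while PclWT alone gave 0.07 (adjusted p = 0.742). The difference between the lines was -1.28 ± 0.13 (adjusted p = 1.54e-05). In the mutants Ccne1 was never over 2-fold from its control. It fell in TKO ESCs (121 ± 2 CPM, -0.57 ± 0.06, adjusted p = 9.19e-08), in QKO ESCs (143 ± 4 CPM, -0.29 ± 0.06, adjusted p = 0.000172) and in Pcgf24KO EpiLCs (243 ± 6 against 300.5 ± 4.4 CPM, -0.28 ± 0.04, adjusted p = 1.7e-08). It rose in J2KO EpiLCs, by 0.11 ± 0.03 (adjusted p = 0.00139, lost in 1 of 6 fits that left out 1 library). TKO EpiLCs (0.17, adjusted p = 0.368) and QKO EpiLCs (0.17, adjusted p = 0.376) did not pass, but without PclWT EpiLC replicate 1 both did, at 0.31 (adjusted p = 6.84e-06) and 0.28 (adjusted p = 0.000163).

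Several of these responses differed between lines or stages by a test of the difference itself. The 2 control lines differed in the stage effect of 4 of the 9 genes (42.8% of all genes tested). The effect of J2KO differed between the stages for 5 of 9 (54.1%), that of TKO for 4 of 9 (15.3%) and that of QKO for 3 of 8 (16.2%). Without PclWT EpiLC replicate 1, 35.5% of all genes passed in the TKO comparison and 37.0% in that of QKO.

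Among 25 other G1/S control genes, 15 passed at the transition in the control lines, 12 higher and 3 lower, where 51.7% of all genes passed. Cdkn1c, which encodes p57, rose by 3.57 on the log2 scale (adjusted p = 5.39e-05) and Myc by 1.49 (adjusted p = 0.00217), while Cdkn1a, which encodes p21, fell by 1.42 (adjusted p = 2.68e-05). The control lines differed in both rises, which were smaller in PclWT than in J2WT. The difference was -3.08 for Cdkn1c (adjusted p = 0.00011) and -2.09 for Myc (adjusted p = 5.08e-07). Of 19 S phase genes 6 passed, 5 of them higher, and of 15 G2 and mitosis genes 5 passed, 4 higher, none by over 2-fold. The median log2 fold changes of the 3 lists were 0.25, 0.14 and 0.14, against -0.02 over all genes. These values average 2 lines that differed. The stage effect in PclWT minus that in J2WT passed for 17 of 19 S phase genes, all lower. It passed for 16 of 25 G1/S genes, 13 lower, and 6 of 15 mitosis genes, 5 lower, against 42.8% of all genes. Median S phase sums went from 5358 to 6776 CPM in J2WT but from 4489 to 4004 CPM in PclWT.

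In QKO ESCs 21 of the 25 G1/S genes passed, 17 higher, where 69.9% of all genes passed. The retinoblastoma gene Rb1 was up by 1.64 (adjusted p = 1.75e-08) and E2f8, a repressing E2F, by 1.45 (adjusted p = 7.72e-11), and Cdkn1c was lower (-1.77, adjusted p = 7.44e-07). TKO ESCs, set against the same PclWT libraries, gave 1.55 for Rb1, 1.14 for E2f8 and -1.51 for Cdkn1c, all past the test. For QKO, the other lists went as follows. Of the S phase genes 16 of 19 passed in QKO ESCs, 15 higher, led by the replicative helicase gene Mcm3 (1.27, adjusted p = 2.56e-13). Their median was 0.47, against 0.02 over all genes, and in TKO ESCs it was 0.48, with 13 of 19 higher. In J2KO ESCs the S phase genes split into 7 higher and 8 lower (median -0.03). In Pcgf24KO EpiLCs 20 of 25 G1/S genes passed, 11 higher, where 56.9% of all genes did, and all 10 of the 15 mitosis genes that passed were higher, such as Aurkb (0.64, adjusted p = 1.27e-15). In that comparison Cdkn1c rose by 1.30 (adjusted p = 1.17e-18) and E2f2 by 1.02 (adjusted p = 2.59e-13).

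Likeness of expression was measured as Pearson's r of log2(CPM + 1) over the 12 group means, among 13359 genes. The groups share lines and depth, and r is given as a description. The closest genes were Sqle for Cdkn2b (0.962), Oip5 for Cdkn2c (0.941), Sertad1 for Cdkn2d (0.937), Gm16185 for Cdkn1b (0.909), Mre11a for Ccnd1 (0.885), Adamts10 for Ccnd2 (0.945), Crnkl1 for Ccnd3 (0.975) and Slfn10-ps for Ccne1 (0.963). Among the 9 genes themselves, Cdkn2b and Ccne1 were the most alike (0.843) and Cdkn2d and Ccnd1 the most opposed (-0.88).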

How the data were processed

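Total RNA of 36 libraries was poly(A)-selected and sequenced, and per the methods of the study the authors aligned reads with STAR to GRCm38 and counted them per Ensembl gene. The deposited values are raw counts per gene, in unstranded and strand columns, with no normalisation. The unstranded counts were used, and rows that name no gene (23.22% to 30.24% of reads) were left out. Groups were taken from the labels. Counts were normalised by TMM and tested with edgeR 4.0.16 in R 4.3.3 (quasi-likelihood test) for genes with a mean normalised count of at least 15, each comparison on its own groups, and the WT stage comparison on J2WT and PclWT with line as a covariate. Benjamini-Hochberg adjustment ran over all genes tested. SE is the log2 fold change divided by the root of F. The 95% intervals of fold changes assume a normal error with this SE. They are narrower than the F test implies and can leave out 0 where the gene does not pass. Cdkn2b in TKO EpiLCs was such a case (0.014 to 0.990, unadjusted p = 0.0834 in edgeR's test). Levels are CPM on TMM-scaled library sizes, per kb of all annotated exons of a gene where genes are compared. The fitting code was tested on simulated data. Members and lists were chosen with earlier results of these data known. By rule the text names all 9 members, at most 3 passing genes of each other list per comparison, the genes most alike to each member (of 3 ranked the first is printed, and those of Cdkn2a are not reported here), the genes near Cdkn2a and the deleted genes. Pairing by replicate number was not established for any groups. Deviations of same-numbered libraries correlated most between the PclWT stages (0.585, 0.357 and 0.312). There only number 1 exceeded the highest correlation between unlike numbers (0.375). Between other groups the same-numbered correlations were at most 0.254. PclWT EpiLC replicate 1 differed from its group by a chi-square per degree of freedom of 67.8 to 75.2 (1.66 between the others) and QKO EpiLC replicate 2 by 31.8 to 37.3 (2.07), and ribosomal RNA made up 1.21% and 4.15% of their counts (0.09% to 1.93% elsewhere). Alternatives were DESeq2 1.42.0, RLE and total-count scaling, filterByExpr and no filter, all libraries in 1 fit, both strand columns, the replicate block, each control line alone and each library left out. Counting intervals cover counting error only.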

Additional observations from a re-analysis of the deposited data

Results flagged for a closer look

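Each value here is a difference between effects, on the log2 scale with its SE, that passed edgeR's test with an adjusted p under 0.05. Between the control lines, the change from ESC to EpiLC in PclWT minus that in J2WT was -6.24 ± 0.40 for Ccnd2 (adjusted p = 5.15e-07), -1.28 ± 0.13 for Ccne1 (adjusted p = 1.54e-05), 0.77 ± 0.24 for Cdkn2d (adjusted p = 0.0223) and 0.28 ± 0.09 for Cdkn1b (adjusted p = 0.0296). Fits that left out 1 library lost the call for Cdkn1b in 8 of 12 and for Cdkn2d in 3 of 12, and for neither cyclin. Ccnd2 was present in PclWT ESCs (11.5 CPM) and all but absent in J2WT ESCs (0.0847 CPM), so the lines entered the transition at unlike levels, and the size of this value rests on 4 counts in J2WT ESCs. The gene was tested only through the other groups, and its value is a description. Without PclWT EpiLC replicate 1, Cdkn2a (-0.77), Ccnd1 (-0.38) and Ccnd3 (-0.27) passed as well.

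The effect of J2KO in EpiLCs minus that in ESCs was -0.91 ± 0.11 for Cdkn2a (adjusted p = 5.01e-08), 0.92 ± 0.06 for Ccnd1 (adjusted p = 2.87e-14), 0.69 ± 0.05 for Ccnd3 (adjusted p = 7.5e-14), 0.16 ± 0.05 for Ccne1 (adjusted p = 0.00384) and -0.16 ± 0.06 for Cdkn1b (adjusted p = 0.0272). Only the Cdkn1b value lost its call when libraries were left out one at a time, in 8 of 12 fits.

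The same difference for TKO was 2.25 ± 0.20 for Ccnd2 (adjusted p = 4.12e-05), 0.74 ± 0.14 for Ccne1 (adjusted p = 0.00403), -0.43 ± 0.10 for Ccnd3 (adjusted p = 0.0158) and -0.85 ± 0.26 for Cdkn2d (adjusted p = 0.0463). Leaving out 1 library ended the call for Cdkn2d in 9 of 12 fits and for Ccnd3 in 6 of 12. For QKO it was 4.52 ± 0.34 for Ccnd2 (adjusted p = 1.02e-05), 0.88 ± 0.26 for Ccnd1 (adjusted p = 0.0364) and 0.50 ± 0.14 for Ccne1 (adjusted p = 0.0354). The Ccnd1 call was lost in 8 of 12 such fits and the Ccne1 call in 9 of 12. The Ccnd2 value for QKO rests on 14 counts in QKO ESCs, where the gene was tested only through the other groups. TKO and QKO share their PclWT libraries. Without PclWT EpiLC replicate 1, Cdkn1b (-0.25) and Ccnd1 (0.45) passed for TKO, and Cdkn2a (-0.56), Cdkn2b (-1.17) and Cdkn1b (-0.25) for QKO.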

How the results depend on the processing

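Of the values of single members, 922 kept their side of the threshold under settings other than leaving out 1 library, 42 newly passed and 30 no longer did, and with 1 library left out the counts were 880, 24 and 77. Of those that kept their side, 15 and 22 values that did not pass changed sign. filterByExpr changed none of 120. Turning to counts of members, PclWT alone gave 4 that passed between the stages, and J2KO ESCs gave 2 over 2-fold without a count filter and 2 with all 36 libraries in 1 fit, since Ccnd2 was then tested. That joint fit gave 6 that passed in QKO EpiLCs, 3 for J2KO by stage, 7 for TKO by stage and 6 for QKO by stage, and leaving out both libraries that stood apart, a choice made after seeing the data, gave 6 in QKO EpiLCs and 6 for QKO by stage. With each library left out in turn, the members that passed numbered 2 to 7 for the control lines by stage, 3 to 9 in TKO EpiLCs (2 to 4 over 2-fold), 1 to 6 in QKO EpiLCs (1 to 2 over 2-fold), 2 to 6 for TKO by stage and 1 to 6 for QKO by stage. The highest count of members that passed came in each of these without PclWT EpiLC replicate 1. More of all genes passed there too. They numbered 8813 of 13567 tested for the control lines by stage and 8535 of 12854 in TKO EpiLCs. In QKO EpiLCs they were 8541 of 12870, and for TKO by stage 4543 of 12795. Cdkn2a in TKO EpiLCs ranged from -0.22 to 0.46 and turned from -0.00 to 0.46 without that library.

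Over all genes, 4312 passed in TKO EpiLCs, 8535 without PclWT EpiLC replicate 1, 8277 in the joint fit and 2072 to 2388 without 1 TKO library. The QKO EpiLC counts were 4218, 8541, 8113 and 2213 to 2267, with 8331 without both libraries. By stage, TKO went from 1961 to 4543 without the PclWT library and 4244 jointly, QKO from 2055 to 4698, 4316 and, without both, 4409, and J2KO from 7532 to 4655 jointly. The control lines by stage went from 5787 to 8813 without the PclWT library, and the stage comparison from 6994 to 11419 in J2WT alone and 3847 in PclWT alone. Without a count filter, genes over 2-fold rose from 2823 to 5101 between the stages, from 1793 to 3109 and 1220 to 2221 in J2KO ESCs and EpiLCs, from 1710 to 2971 and 1700 to 2973 in TKO and QKO ESCs, from 558 to 1042 and 615 to 1085 for QKO against TKO, and from 740 to 1446 in Pcgf24KO.

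With the replicate numbers as a block, Cdkn2c (-0.52) and Ccnd2 (2.45) lost the stage call and Cdkn1b (0.28) that between control lines, which Ccnd1 (-0.66) gained. Cdkn1b in TKO EpiLCs (0.41) and Cdkn2d for QKO against TKO EpiLCs (0.32) lost theirs, Cdkn2b for QKO by stage (-1.29) gained one, and no other member's call changed. The causes were not tested. Depth limits Cdkn2b, Cdkn2c and, in ESCs, Ccnd2.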
